A study of Mus musculus with 17 samples.

Results

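The genes described here take fatty acids into cells, carry and store them, or control and mark fat cells. They are Cd36, Lpl, Fabp4, Fabp5, Plin2, Pparg, Cebpa, Cebpb and Adipoq, 9 genes of 19938 tested. They were chosen by symbol in the platform annotation, each through its probe set with the highest mean signal, and all 9 were measured. Their RNA levels come from 17 arrays of the Affymetrix Mouse Gene 1.0 ST type and 4 stable derivatives of 3134 cells, a mouse mammary epithelial cell line. All 4 derivatives carry a tetracycline-regulated transactivator. The dnBrg1, dnChd4 and dnSnf2h lines also carry a stably integrated dominant-negative version, tagged with Flag, of an ATP-driven chromatin remodeler, and the control line (3134Tet) carries the transactivator alone. Brg1 is the motor of SWI/SNF complexes (gene Smarca4), Chd4 is a motor of the NuRD complex, and Snf2h is the motor of ISWI complexes (gene Smarca5). Stocks of every line were kept in 5 µg/ml tetracycline, which holds both proteins off. The cells were then plated for 48 h in medium with charcoal-dextran-treated serum, either without the drug (induced) or with it (repressed). Each dominant-negative line had 2 induced and 2 repressed arrays, and the control line had 3 induced and 2 repressed arrays. Each line is 1 derivative, so a difference between lines cannot be told apart from a difference between clones. Whether replicates were separate cultures is not stated in the labels, and the p-values therefore reflect the spread between these arrays alone, which may be technical.

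CD36 is a membrane receptor that brings long-chain fatty acids and oxidized lipoproteins into cells. Lipoprotein lipase, the product of Lpl, frees fatty acids from circulating triglycerides, the binding proteins FABP4 and FABP5 carry them in the cytoplasm, and perilipin 2, from Plin2, coats the lipid droplets in which they are stored. In fat cell differentiation C/EBPβ acts early and is followed by PPARγ and C/EBPα, which switch on adipocyte genes such as Fabp4, Cd36 and Adipoq, the adiponectin gene. In the mammary gland the fat pad uses these genes, and in lactation the secretory epithelium uses several of them to take up fatty acids for milk.

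The promoters shown are those of the gene that rose in the dnBrg1 line (Cd36), a gene that fell in dnChd4 and dnSnf2h (Cebpb) and a droplet gene (Plin2). Plin2 passed in no main comparison, and its signal lay above the dimness bound given below on every array. No window was found for Lpl, Fabp4 or Fabp5, so Fabp5, which fell in all 3 dominant-negative lines, is not shown. Each window is 300 bases, from 250 before to 50 after the annotated start, 5′ to 3′ on the gene's strand, from RefSeq on GRCm38.p6, which listed 8 windows for 6 of the 9 genes. The windows lie at chr5:17835847-17836146 on the minus strand for Cd36, chr2:167688665-167688964 on the plus strand for Cebpb and chr4:86670010-86670309 on the minus strand for Plin2. The Cd36 window lies inside the gene, which spans chr5:17781690-17888959. It belongs to an internal annotated start, and the 5′ end of the gene has no window here. Capitals mark matches, on either strand, to AGGTCA (a nuclear receptor half-site), to CCAAT (the CCAAT box), to TATAAA (the core promoter element called the TATA box) or to TGACG (a CREB half-site). The full CREB site TGACGTCA contains its half-site, so a match to it would count under both.
Cd36: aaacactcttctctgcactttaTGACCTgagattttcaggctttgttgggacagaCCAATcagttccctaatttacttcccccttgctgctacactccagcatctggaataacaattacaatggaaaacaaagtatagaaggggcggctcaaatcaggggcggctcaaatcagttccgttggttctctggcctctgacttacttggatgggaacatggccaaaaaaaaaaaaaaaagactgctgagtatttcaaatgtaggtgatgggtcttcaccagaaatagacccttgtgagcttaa
Cebpb: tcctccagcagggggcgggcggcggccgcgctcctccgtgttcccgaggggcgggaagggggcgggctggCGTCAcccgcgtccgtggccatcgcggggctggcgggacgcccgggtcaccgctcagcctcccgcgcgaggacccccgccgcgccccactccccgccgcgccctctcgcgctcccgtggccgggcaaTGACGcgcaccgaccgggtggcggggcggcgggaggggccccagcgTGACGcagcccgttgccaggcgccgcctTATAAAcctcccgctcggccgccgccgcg
Plin2: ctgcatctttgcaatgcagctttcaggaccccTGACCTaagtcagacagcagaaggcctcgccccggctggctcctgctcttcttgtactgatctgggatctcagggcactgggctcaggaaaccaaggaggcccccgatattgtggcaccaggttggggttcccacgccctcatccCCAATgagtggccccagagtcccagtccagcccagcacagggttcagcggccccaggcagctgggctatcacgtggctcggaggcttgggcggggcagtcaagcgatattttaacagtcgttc
Cd36 and Plin2 each held 1 nuclear receptor half-site, read as TGACCT, starting 228 and 218 bases before the start. Each also held 1 CCAAT box, 195 bases before the start in Cd36 and 73 bases before it in Plin2. The Cebpb window held TATAAA inside the first bases of the transcript and 3 CREB half-sites, starting 180, 53 and 7 bases before the start. Of all 32817 RefSeq promoter windows, 16.3% held the nuclear receptor half-site, 37.4% the CCAAT box, 13.6% the TATA box and 20.8% the CREB half-site, so the matches are descriptions and not sites. The C/EBP palindrome TTGCGCAA was searched as well, as were the AP-1 letters, which are TGANTCA, and the full CREB site. They occurred in 0.183%, 7.81% and 1.79% of all windows, and in none of the 8 windows of the 9 genes. The Cebpb window was 80.7% G and C with 50 CpG, the Plin2 window 60.7% with 10 and the Cd36 window 43.0% with 3, against a median of 52.7% and 7 CpG over all windows.

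Values are log2 signals, and a difference of 1 is a doubling. As a check of the labels, the signal for Chd4 was 12.27 and 12.27 in induced dnChd4, against 10.56 and 10.35 in the repressed ones. Smarca4 read 9.61 and 9.73 in induced dnBrg1, against 9.66 and 9.46 in repressed dnBrg1. Smarca5 read 9.43 and 9.59 in induced dnSnf2h, against 9.69 and 9.81 in repressed dnSnf2h, so a rise that checks the labels was seen in the dnChd4 line only. Control arrays did not group by label. Across genes, control induced replicate 2 was the nearest array to the library labelled control repressed replicate 1 (r = 0.995), and the libraries labelled control induced replicate 1 and control repressed replicate 2 were nearest to each other (r = 0.994). Across genes, replicate 1 minus replicate 2 followed the mean dominant-negative induction at r = 0.798 in the libraries labelled control repressed and at r = -0.815 in those labelled control induced, against -0.04 to 0.18 in the 6 dominant-negative groups. Whether the titles of 2 control libraries were exchanged was not tested, and every change or difference that uses the control line rests on those titles. All 12 dominant-negative arrays correlated best with an array of the same treatment, 9 of them with the other array of their own group. The remaining 3, both repressed dnSnf2h arrays and induced dnSnf2h replicate 2, correlated best with a dnChd4 array. Changes within and between the dominant-negative lines were therefore fitted on those 12 arrays. Comparisons with the control line were fitted on all 17 arrays and are also given on 15 arrays, without the libraries labelled control induced replicate 1 and control repressed replicate 1.

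The mean signals of the 9 genes lay at percentiles 11.4 to 96.1 of those of all genes. As a guide to dimness, 1027 olfactory receptor genes were taken as mostly silent in a mammary line, which was not tested. Their 95th percentile was 4.99, a bound chosen after the values were seen. Plin2, Fabp5, Cebpb and Cebpa lay above it on every array, with means over 17 arrays of 10.01, 7.96, 7.75 and 5.55. Pparg, at a mean of 5.03, was above the bound on 11 of 17 arrays. Lpl (4.18), Fabp4 (4.28) and Adipoq (4.16) were above it on none, and Cd36 (3.81) on 2, both of them induced dnBrg1. The label of an epithelial line was set beside its markers. Of 12 luminal epithelial markers 7 had means above the bound, with Krt8 at 6.29, while Epcam (4.12), Krt19, Elf3, Esrp1 and Elf5 lay under it, and the mesenchymal marker Vim averaged 12.71. Levels of different genes come from different probes and are not compared with each other beyond this. In a bulk sample, fewer cells with a gene on and less RNA per cell cannot be told apart.

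**Figure D1:**
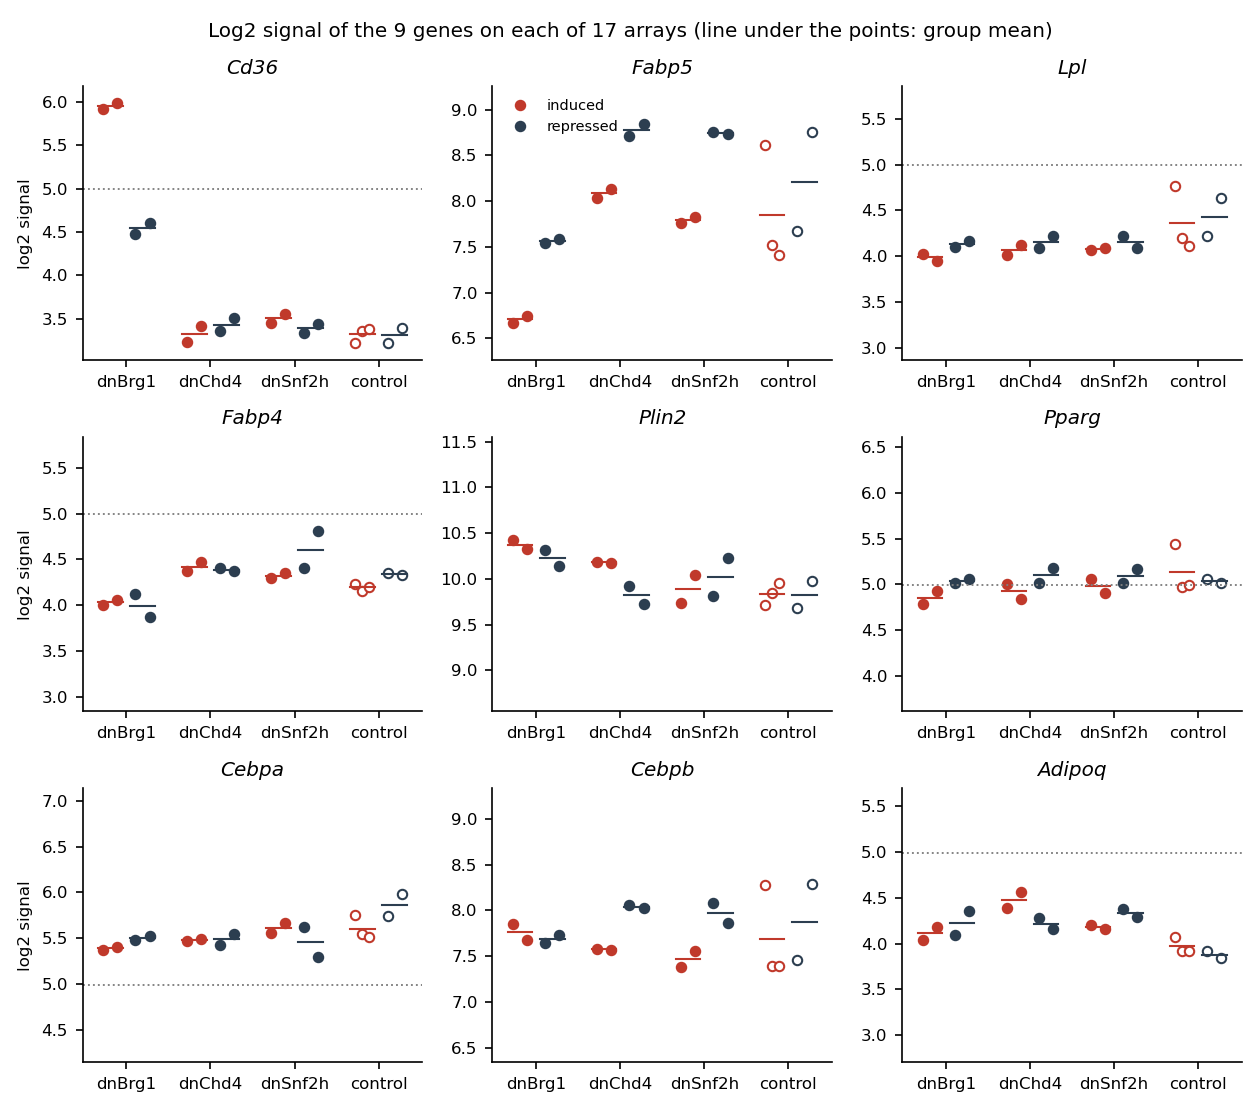
Log2 signal (vertical axes, 1 panel per gene) on each of the 17 arrays by line and treatment, with induced left of repressed. Points are arrays, the short line is the group mean, open symbols are the control line and the dotted line is the olfactory receptor bound of 4.99. Cd36 stands higher in the dnBrg1 line than in the other lines. In the control line Fabp5 and Cebpb each have 1 induced array beside 1 repressed array near the top.

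Cd36 rose when dnBrg1 was induced and already read higher in that line than in the others before induction, though under the dimness bound. The probe set 10528207 for this gene (chr5:17781690-17888959 in RefSeq on GRCm38.p6) read 5.91 and 5.98 in induced dnBrg1 arrays, against 4.48 and 4.60 in repressed ones. It read 3.23 and 3.42 in induced dnChd4, against 3.35 and 3.51 in repressed dnChd4, and 3.45 and 3.56 in induced dnSnf2h, against 3.33 and 3.44 in repressed dnSnf2h. Control arrays read 3.22, 3.36 and 3.38 induced and 3.22 and 3.40 repressed. Both induced dnBrg1 arrays lay above both repressed ones, and all 4 lay above the other 13 arrays, which ran from 3.22 to 3.56. The induction in dnBrg1 was 1.41 (SE 0.103, 2.65-fold; limma adjusted p = 1.25e-06). The repressed dnBrg1 arrays lie under the dimness bound of 4.99, and the induced mean exceeded that bound by 0.96, or 1.94-fold. The induction passed with all 17 arrays (adjusted p = 4.06e-05) and with the dnBrg1 arrays alone (adjusted p = 2.56e-04). Cd36 changed by -0.11 in dnChd4 (95% interval -0.33 to 0.11; limma adjusted p = 0.573) and by 0.12 in dnSnf2h (-0.10 to 0.34; limma adjusted p = 0.509). All levels in dnChd4, dnSnf2h and the control line also lie under the bound, where a probe can hide a small change.

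The Cd36 induction in dnBrg1 differed from that of every other line by the test of the difference itself. It exceeded the dnChd4 induction by 1.52 (SE 0.145; limma adjusted p = 3.88e-05) and the dnSnf2h induction by 1.29 (SE 0.145; limma adjusted p = 6.37e-04). Over all genes 1.27% and 0.632% passed in these differences, and Cd36 was the 1 gene of the 9 to pass in either. It exceeded the control induction by 1.40 (SE 0.147; limma adjusted p = 0.00151), where 0.0903% of genes passed. Without the 2 doubted control libraries the excess was 1.44 (adjusted p = 6.47e-05), where 6.95% of genes passed. Among the control induction itself and its differences from the dnChd4 and dnSnf2h inductions, the 15-array fit called 26.6%, 0.818% and 2.08% of all genes and the 17-array fit 0.0%, 0.0401% and 0.0%. In the control line Cd36 changed by 0.01 (SE 0.0991; limma adjusted p = 0.997). The order of Cd36 levels was induced dnBrg1, repressed dnBrg1, then the other 6 groups, with means of 3.31 to 3.51, where neighbouring groups overlapped.

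CD36 is also made by macrophages and endothelial cells, and markers of both were set beside it. In the dnBrg1 induction 1 of 14 macrophage markers rose and 1 fell, where 8.01% of all genes rose and 6.22% fell. Lyz2, which encodes lysozyme, rose by 1.34 (adjusted p = 2.78e-04) and the lysosomal gene Cd68 fell by 0.48 (adjusted p = 0.0263), both in limma. Lyz2 also rose in dnChd4 and dnSnf2h, by 1.74 and 1.36, where Cd36 did not pass. Before induction Lyz2 averaged 6.25 in dnBrg1, 4.99 in dnChd4 and 5.72 in dnSnf2h, so like Cd36 it read highest in dnBrg1. Cd68 rose by 1.03 in dnChd4 (limma adjusted p = 1.03e-04, and 0.0168 with 17 arrays) and changed by 0.05 in dnSnf2h (limma adjusted p = 0.857). The mean of the 14 macrophage markers was between 4.76 and 4.79 in induced dnBrg1 arrays and between 4.74 and 4.78 in repressed ones. Adgre1, Csf1r, Ptprc and Itgam of the macrophage list had means under the dimness bound, as did Pecam1, Tek and Emcn among 11 endothelial markers. Of the 14 macrophage markers 5 had means above the bound, namely Cd68, Lyz2, Cd14, Marco and Cx3cr1. Of the 11 endothelial markers 6 did, among them Cdh5 (VE-cadherin) at 7.07, with arrays from 3.86 to 8.33. The mean of the 11 endothelial markers ran from 4.976 to 5.045 over the dnBrg1 arrays. It ran from 5.216 to 5.468 over the arrays of the other lines. None of the 11 endothelial markers passed in any dominant-negative induction in the 12-array limma fit. Over all genes 14.2%, 18.0% and 17.5% passed there in dnBrg1, dnChd4 and dnSnf2h, and 11 genes are few against such shares. Of 11 fibroblast and mesenchymal markers 7 fell and 0 rose in dnBrg1, where 6.22% of all genes fell and 8.01% rose. Their part in the Cd36 result was not tested.

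Fabp5 fell in all 3 dominant-negative lines when the protein was induced. FABP5 is the fatty acid binding protein of epithelia. Its probe set 10585699 read 6.67 and 6.75 in induced dnBrg1, against 7.54 and 7.59 in repressed dnBrg1. In dnChd4 it read 8.04 and 8.13 induced and 8.71 and 8.85 repressed, and in dnSnf2h 7.76 and 7.83 induced and 8.75 and 8.73 repressed. The induced arrays lay below the repressed ones in each line without overlap. The changes were -0.85 in dnBrg1 (SE 0.092, limma adjusted p = 3.16e-05), -0.69 in dnChd4 (SE 0.092, limma adjusted p = 1.04e-04) and -0.95 in dnSnf2h (SE 0.092, limma adjusted p = 1.12e-05). These are falls of 1.81-fold, 1.62-fold and 1.93-fold. No difference between lines in this change passed, with the dnBrg1 change minus the dnChd4 change at -0.16 (95% interval -0.44 to 0.12; limma adjusted p = 0.797) and minus the dnSnf2h change at 0.09 (-0.18 to 0.37; limma adjusted p = 0.868). The dnChd4 change minus the dnSnf2h change was 0.25 (-0.02 to 0.53; limma adjusted p = 0.703), in a comparison where 0.13% of all genes passed.

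The Fabp5 calls were lost when the control arrays were fitted under their labels. With all 17 arrays in 1 fit the same changes had adjusted p = 0.411, 0.452 and 0.368 in dnBrg1, dnChd4 and dnSnf2h. With each line alone they passed at adjusted p = 0.00105, 0.00359 and 0.00494. In the control line Fabp5 read 8.61, 7.52 and 7.42 in induced replicates 1, 2 and 3, against 7.68 and 8.75 in repressed replicates 1 and 2, so the groups overlapped. The control change was -0.36 (SE 0.318; limma adjusted p = 0.994) with 17 arrays and -1.28 (adjusted p = 5.06e-07) with 15. With 15 arrays the dnBrg1 change minus the control change was 0.43 (adjusted p = 0.0889) and the dnChd4 change minus it was 0.59 (adjusted p = 0.0703), neither past the threshold. A second probe set of the gene changed by -0.87 in dnBrg1, -0.69 in dnChd4 and -0.98 in dnSnf2h. The order of Fabp5 levels began with repressed dnChd4 (mean 8.78) and repressed dnSnf2h (8.74), which overlapped, and ended with repressed dnBrg1 (7.56) and induced dnBrg1 (6.71), which did not. RNA from near-identical copies of Fabp5 cannot be told apart by these values.

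Cebpb fell in dnChd4 and dnSnf2h and did not pass in dnBrg1. It encodes C/EBPβ, a transcription factor that in fat cells acts before Pparg and Cebpa and in the mammary gland is needed for lobule development. It read 7.58 and 7.56 in induced dnChd4, against 8.05 and 8.03 in repressed dnChd4, a change of -0.47 (SE 0.105; limma adjusted p = 0.00527). It read 7.38 and 7.55 in induced dnSnf2h, against 8.08 and 7.86 in repressed dnSnf2h, a change of -0.51 (SE 0.105; limma adjusted p = 0.00346). In dnBrg1 it read 7.85 and 7.68 induced and 7.64 and 7.73 repressed, which overlap, a change of 0.08 (95% interval -0.15 to 0.30; limma adjusted p = 0.731). The difference between lines did not pass: dnBrg1 exceeded dnChd4 by 0.55 (SE 0.149; limma adjusted p = 0.113) and dnSnf2h by 0.58 (SE 0.149; limma adjusted p = 0.118). Weighting the arrays by quality brought the first of these to adjusted p = 0.029. Without the repressed dnSnf2h replicate 2 the second was 0.70 (adjusted p = 0.0455).

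The control arrays decide how the Cebpb changes read. With 17 arrays they had adjusted p = 0.493 in dnChd4 and 0.459 in dnSnf2h, and with dnSnf2h alone adjusted p = 0.0628. Control arrays read 8.27, 7.39 and 7.39 in induced replicates 1, 2 and 3, against 7.45 and 8.29 in repressed replicates 1 and 2, so the same 2 libraries stood high as for Fabp5. The control change was -0.19 (SE 0.255; limma adjusted p = 0.994) with 17 arrays and -0.90 (adjusted p = 4.11e-05) with 15. The dnBrg1 change exceeded the control change by 0.27 (limma adjusted p = 0.977) with 17 arrays and by 0.98 (adjusted p = 0.00179) with 15.

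Counted over the 9 genes, the dnBrg1 induction held 1 that rose and 1 that fell, where 14.2% of all genes passed (8.01% rose and 6.22% fell). The dnChd4 induction held 0 that rose and 2 that fell, where 18.0% of all genes passed (11.2% rose and 6.82% fell). The dnSnf2h induction also held 0 that rose and 2 that fell, where 17.5% passed (9.2% rose and 8.34% fell). The counts in the dnBrg1, dnChd4 and dnSnf2h inductions are near what their shares give for 9 genes. None of the 9 passed in the dnChd4 or dnSnf2h induction minus the control induction in limma with 17 arrays. There 0.0401% and 0.0% of all genes passed, while 771 and 1121 genes had an unadjusted p under 0.05. With so few genes passing, a count of 0 among the 9 cannot set them apart, and nothing is read from it. In the 17-array fit 0.341%, 0.0953% and 0.00502% of all genes passed in dnBrg1, dnChd4 and dnSnf2h, and 1, 0 and 0 of the 9. With each line fitted alone 14.7%, 20.9% and 7.25% passed. The median change of the 9 was -0.11 in dnBrg1, -0.09 in dnChd4 and -0.14 in dnSnf2h, beside -0.03, -0.03 and -0.01 over all genes.

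**Figure D2:**
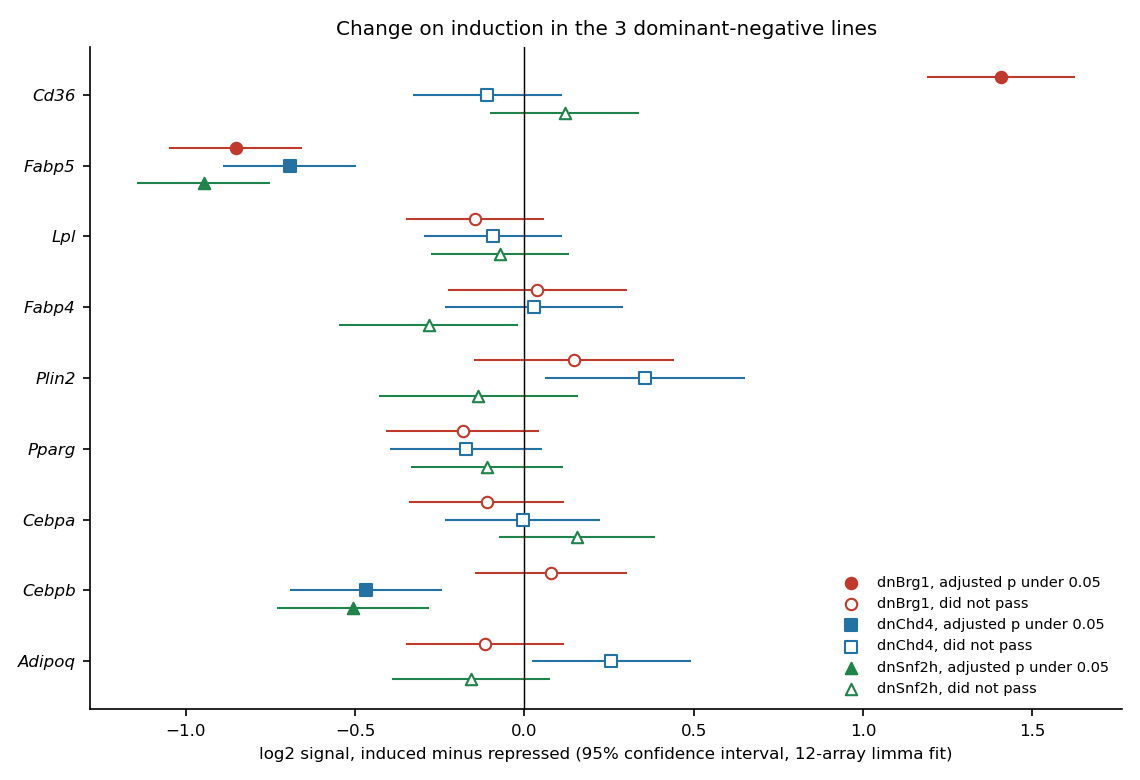
Log2 signal change, induced minus repressed, of the 9 genes in each dominant-negative line (horizontal axis), with 95% confidence intervals from the 12-array limma fit. Filled symbols passed at an adjusted p under 0.05. Cd36 in dnBrg1 is the 1 filled point right of 0, at 1.41, and Fabp5 lies between -0.95 and -0.69 in all 3 lines.

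The adipocyte genes in the narrow sense did not pass in any line. Plin2, Lpl, Fabp4, Pparg, Cebpa and Adipoq changed by between -0.28 and 0.36, with limma adjusted p between 0.096 and 0.987 and 95% intervals that ran from -0.55 to 0.65 at their widest. Plin2 read 10.19 and 10.18 in induced dnChd4, against 9.93 and 9.72 in repressed dnChd4, a difference of 0.36 (SE 0.138; limma adjusted p = 0.096). The induced dnChd4 arrays lay above the repressed ones, and the difference passed with dnChd4 alone (adjusted p = 0.0363). It also passed without either repressed dnSnf2h array (adjusted p = 0.0361), with array weights (adjusted p = 0.0143) and with quantile normalization (adjusted p = 0.0476). In dnBrg1 Plin2 read 10.43 and 10.32 induced and 10.31 and 10.14 repressed, and in dnSnf2h 9.73 and 10.04 induced and 9.81 and 10.23 repressed. The dnSnf2h arrays overlapped and the dnBrg1 arrays did not.

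Pparg, the master regulator of fat cells, read 4.79 and 4.93 in induced dnBrg1, against 5.02 and 5.06 in repressed dnBrg1. It read 5.00 and 4.85 in induced dnChd4, against 5.02 and 5.18 in repressed dnChd4, and 5.06 and 4.91 in induced dnSnf2h, against 5.02 and 5.17 in repressed dnSnf2h. These values straddle the dimness bound and none of the 3 differences passed. Cebpa, its partner, lay between 5.30 and 5.67 on all 12 dominant-negative arrays. Without the repressed dnSnf2h replicate 1, its dnSnf2h change was 0.32 (adjusted p = 0.0478) and that of Fabp4 was -0.48 (adjusted p = 0.00997). Lpl lay between 3.95 and 4.22 on those 12 arrays, Fabp4 between 3.87 and 4.81 and Adipoq between 4.04 and 4.56. The Adipoq change in dnChd4, 0.26 (SE 0.109; limma adjusted p = 0.135), passed with array weights (adjusted p = 0.0485) and quantile normalization (adjusted p = 0.0406). In the control line, replicates in order, Plin2 read 9.71, 9.85 and 9.95 induced and 9.68 and 9.97 repressed, and Pparg read 5.44, 4.98 and 4.99 induced and 5.06 and 5.02 repressed. Lpl read 4.77, 4.20 and 4.11 induced and 4.21 and 4.64 repressed, and Cebpa 5.75, 5.55 and 5.51 induced and 5.74 and 5.99 repressed. The groups overlapped for each of these 4 genes. Fabp4 read 4.23, 4.15 and 4.20 induced and 4.35 and 4.33 repressed, and Adipoq 4.07, 3.92 and 3.92 induced and 3.92 and 3.84 repressed. Neither overlapped, all values lay under the bound, and the changes of -0.15 and 0.09 did not pass (limma adjusted p = 0.994 for both). With 15 arrays Lpl and Cebpa fell in the control line by 0.48 and 0.46 (limma adjusted p = 0.00442 and 0.0132), in a fit with 1 repressed control array. Among 15 measured adipocyte markers, 0 passed in any of the 3 inductions, where 14.2%, 18.0% and 17.5% of all genes passed. Only 6 of these markers had means above the dimness bound, which limits what their count can show. Of the 15, Lipe (hormone-sensitive lipase), Plin1 (perilipin 1) and Cidec (a droplet protein) had means of 6.15, 6.08 and 5.65, above the bound, and the leptin gene Lep one of 3.90, under it.

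Before induction the dnBrg1 line already differed from the other dominant-negative lines in these genes. Repressed dnBrg1 exceeded repressed dnChd4 in Cd36 by 1.11 (SE 0.103; limma adjusted p = 5.08e-06) and repressed dnSnf2h by 1.15 (SE 0.103; limma adjusted p = 4.15e-06). All repressed arrays lie under the dimness bound for Cd36, so these are differences between measured dim signals. For Fabp5 the differences were -1.21 (SE 0.092; limma adjusted p = 8.08e-07) and -1.18 (SE 0.092; limma adjusted p = 1.2e-06). Both repressed dnBrg1 arrays, at 7.54 and 7.59, read below every induced array of dnChd4 and dnSnf2h. With 17 arrays the Fabp5 differences had adjusted p = 0.0782 and 0.0893, while those of Cd36 passed; 4.03% and 3.89% of all genes passed in that fit. Repressed dnBrg1 and repressed dnChd4 differed in 4 of the 9 genes, where 14.4% of all genes passed. Repressed dnBrg1 and repressed dnSnf2h differed in 3, where 14.3% passed. No gene of the 9 differed between repressed dnChd4 and repressed dnSnf2h, where 0.015% of all genes passed.

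The other repressed differences were smaller. Fabp4 read 4.12 and 3.87 in repressed dnBrg1, against 4.40 and 4.37 in repressed dnChd4 and 4.40 and 4.81 in repressed dnSnf2h. The dnBrg1 arrays were the lowest, with differences of -0.40 (limma adjusted p = 0.0441) and -0.61 (limma adjusted p = 0.00367), all at signals under the dimness bound. The first was lost with 17 arrays (adjusted p = 0.107), and without any single induced array, either dnChd4 repressed array or dnBrg1 repressed replicate 2 (adjusted p = 0.0536 to 0.299). It was also lost with quantile normalization (adjusted p = 0.0602), median centring (0.0575) and all probe sets (0.119). The second was lost without dnBrg1 repressed replicate 2 (adjusted p = 0.0513). Cebpb was lower in repressed dnBrg1 than in repressed dnChd4 by -0.36 (limma adjusted p = 0.0328), a call lost with 17 arrays (adjusted p = 0.704), with all probe sets (0.0763) and without any 1 dnBrg1 repressed or dnChd4 array (adjusted p = 0.0504 to 0.17). Cebpb was not called against repressed dnSnf2h, at -0.29 (limma adjusted p = 0.0843), and passed there without dnSnf2h repressed replicate 2 (-0.40, adjusted p = 0.0333) and with median centring (adjusted p = 0.0455). Plin2 read higher in repressed dnBrg1 than in repressed dnChd4 by 0.40 (limma adjusted p = 0.0674), which passed without either repressed dnSnf2h array (adjusted p = 0.0225), with trended and robust eBayes (0.0432), array weights (0.0315) and quantile normalization (0.0198).

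**Figure D3:**
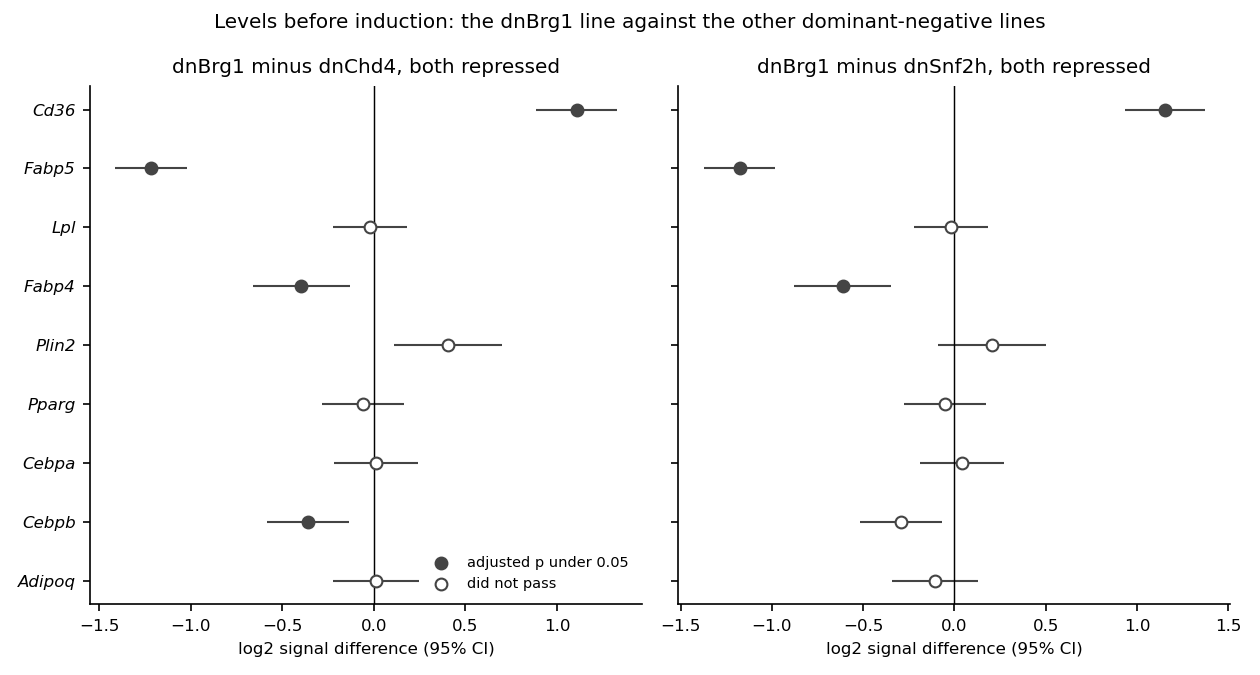
Log2 signal differences before induction (horizontal axes, 95% confidence intervals, 12-array limma fit), with dnBrg1 minus dnChd4 on the left and dnBrg1 minus dnSnf2h on the right. Filled points passed at an adjusted p under 0.05. Cd36 lies above 1 and Fabp5 below -1 in both panels.

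Against the repressed control line, the 3 dominant-negative lines share 2 control arrays that did not resemble each other. Cd36 was higher in repressed dnBrg1 by 1.23 (SE 0.109; limma adjusted p = 2.44e-05; 1.14 with 15 arrays), the 1 gene of the 9 that passed where 16.2% of all genes did. Adipoq was higher in repressed dnSnf2h by 0.46 (limma adjusted p = 0.0261; 0.0148 with 15 arrays), the 1 gene of the 9 that passed where 9.35% did. That Adipoq difference lies under the dimness bound and was lost without either control repressed array (adjusted p = 0.0573 and 0.0586), and without either dnSnf2h repressed array (adjusted p = 0.0762 and 0.111), and with array weights (adjusted p = 0.308). None of the 9 passed for repressed dnChd4, where 2.63% did. With 15 arrays, where the 1 control repressed array left is replicate 2, the counts were 6, 3 and 2 for dnBrg1, dnSnf2h and dnChd4, where 28.7%, 19.5% and 9.74% of all genes passed. All 3 then had lower Lpl and Cebpa than that array, by -0.50 and -0.49 in dnBrg1, -0.49 and -0.53 in dnSnf2h and -0.48 and -0.50 in dnChd4. The added dnBrg1 calls were Fabp5 at -1.19, Cebpb at -0.61 and Adipoq at 0.39. With 1 library left out of the 17, the dnBrg1 count was 3 without control repressed replicate 1 (Fabp5 and Cebpa added), control induced replicate 1 (Cebpa and Adipoq) or either dnSnf2h repressed array (Fabp4 and Cebpa). It was 2 without dnBrg1 repressed replicate 1 (Adipoq added). The dnSnf2h count was 2 without control induced replicate 1 (Cebpa added) and without dnSnf2h repressed replicate 1 (Fabp4 and Cebpa in place of Adipoq).

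The wider pathway was read from 7 gene lists. Of 23 measured genes of fatty acid uptake and binding, Cd36 and Fabp5 included, 5 rose and 3 fell in dnBrg1, 1 rose and 2 fell in dnChd4, and 1 rose and 2 fell in dnSnf2h. Beside the lists, 8.01% of all genes rose and 6.22% fell in dnBrg1, 11.2% rose and 6.82% fell in dnChd4, and 9.2% rose and 8.34% fell in dnSnf2h. Lists of 14 to 24 genes are small against such shares, and nothing particular to a list is read from its counts. Apart from the 9 genes, the listed genes were not read in the control line. Whether drug withdrawal with the transactivator alone changes them was therefore not tested. With each line fitted alone the uptake counts were the same. Slc27a4, a fatty acid transport protein, rose in all 3 lines by 0.68, 0.98 and 0.83 in dnBrg1, dnChd4 and dnSnf2h (limma adjusted p = 6.89e-04, 2.34e-05 and 1.14e-04). These 3 rises did not pass with all 17 arrays (limma adjusted p = 0.600, 0.432 and 0.437). Acsl5, which activates fatty acids with coenzyme A, fell in all 3 by -0.42, -0.51 and -0.63 (limma adjusted p = 0.0202, 0.00458 and 0.00115). Angptl4, an inhibitor of lipoprotein lipase and a PPAR target, rose by 0.96 in dnBrg1 (limma adjusted p = 2.52e-04) and read 0.01 and 0.02 in dnChd4 and dnSnf2h. Its dnBrg1 change exceeded the dnChd4 change by 0.95 (SE 0.189; limma adjusted p = 0.0208) and the dnSnf2h change by 0.94 (SE 0.189; limma adjusted p = 0.0376). With 17 arrays its adjusted p was 0.0724 in dnBrg1, and both differences were lost (limma adjusted p = 0.714 and 0.9998).

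Of 24 lipid droplet and triglyceride storage genes, 3 rose in every line, while 2 fell in dnBrg1 and 1 in each of dnChd4 and dnSnf2h. With each line fitted alone 3 rose and 2 fell in dnBrg1, 4 rose and 1 fell in dnChd4, and 1 rose and 0 fell in dnSnf2h. The 3 that rose on 12 arrays were Pnpla2, Lipa and Fitm2 in each line. Pnpla2, which encodes the first lipase of stored triglyceride, rose by 0.94, 0.48 and 0.79 in dnBrg1, dnChd4 and dnSnf2h (limma adjusted p = 2.69e-05, 0.00299 and 8.57e-05). Lipa, the lysosomal lipase, rose by 0.87, 1.00 and 0.63 (limma adjusted p = 0.00155, 3.41e-04 and 0.00965). Fitm2, a droplet biogenesis gene, rose by 0.63, 0.56 and 0.52. Plin4, a droplet coat protein related to Plin2, averaged 6.55 ± 0.07 in induced dnBrg1 and 7.73 ± 0.18 in repressed dnBrg1 (SD, n = 2 each), a fall of 1.18 on the log2 scale (limma adjusted p = 5.85e-04).

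Of 17 fatty acid oxidation genes, 4 rose and 1 fell in dnBrg1, 8 rose and 1 fell in dnChd4, and 3 rose and 3 fell in dnSnf2h. With each line alone the counts were 3 and 3, 8 and 1, and 2 and 1. Acadvl, the first enzyme of mitochondrial oxidation of long chains, rose by 0.69, 0.87 and 0.89 in dnBrg1, dnChd4 and dnSnf2h (limma adjusted p = 1.72e-04, 1.54e-05 and 1.76e-05). Slc25a20, the carnitine carrier of the inner membrane, rose by 0.44, 0.92 and 0.87 (limma adjusted p = 0.00756, 2.05e-05 and 4.17e-05). Echs1, the enoyl-CoA hydratase, fell by -0.40, -0.45 and -0.64 (limma adjusted p = 0.0221, 0.00889 and 8.56e-04). The median change of the list was 0.15, 0.24 and -0.05, beside -0.03, -0.03 and -0.01 over all genes. Among 20 PPAR target genes, which overlap the other lists, 3 rose and 3 fell in dnBrg1, 3 rose and 1 fell in dnChd4, and 1 rose and 3 fell in dnSnf2h. With each line alone these counts were 3 and 4, 4 and 1, and 1 and 0.

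Of 22 adipogenic transcription factors, Pparg, Cebpa and Cebpb included, 0 rose and 4 fell in dnBrg1, 1 rose and 1 fell in dnChd4, and 0 rose and 3 fell in dnSnf2h. Ebf1, an early factor of the fat lineage, fell by 0.80 in dnBrg1 (limma adjusted p = 0.00244) and by 0.77 in dnSnf2h (limma adjusted p = 0.00239), and its dnChd4 value was -0.39 (limma adjusted p = 0.101). Klf4 fell in dnBrg1 by 0.61 and Srebf1, a regulator of fatty acid synthesis, rose in dnChd4 by 0.36 (limma adjusted p = 0.0106 and 0.0184). Of 14 inhibitors of adipogenesis, 1 rose and 0 fell in dnBrg1, 4 rose and 1 fell in dnChd4, and 0 rose and 3 fell in dnSnf2h. Sirt1, a deacetylase, rose by 0.51 in dnBrg1 and 0.38 in dnChd4 and fell by 0.35 in dnSnf2h (limma adjusted p = 0.00301, 0.0141 and 0.0247). With dnSnf2h fitted alone 0 rose and 0 fell in the factor list and in the inhibitor list, so the dnSnf2h falls of Ebf1 and Sirt1 were lost there. With dnBrg1 alone 0 factors rose and 4 fell, and 2 inhibitors rose and 1 fell. With dnChd4 alone 1 factor rose and 2 fell, and 4 inhibitors rose and 2 fell. With all 17 arrays Cd36 in dnBrg1, which stands in the uptake and PPAR lists, was the 1 call left in the 7 lists over the 3 inductions.

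**Figure D4:**
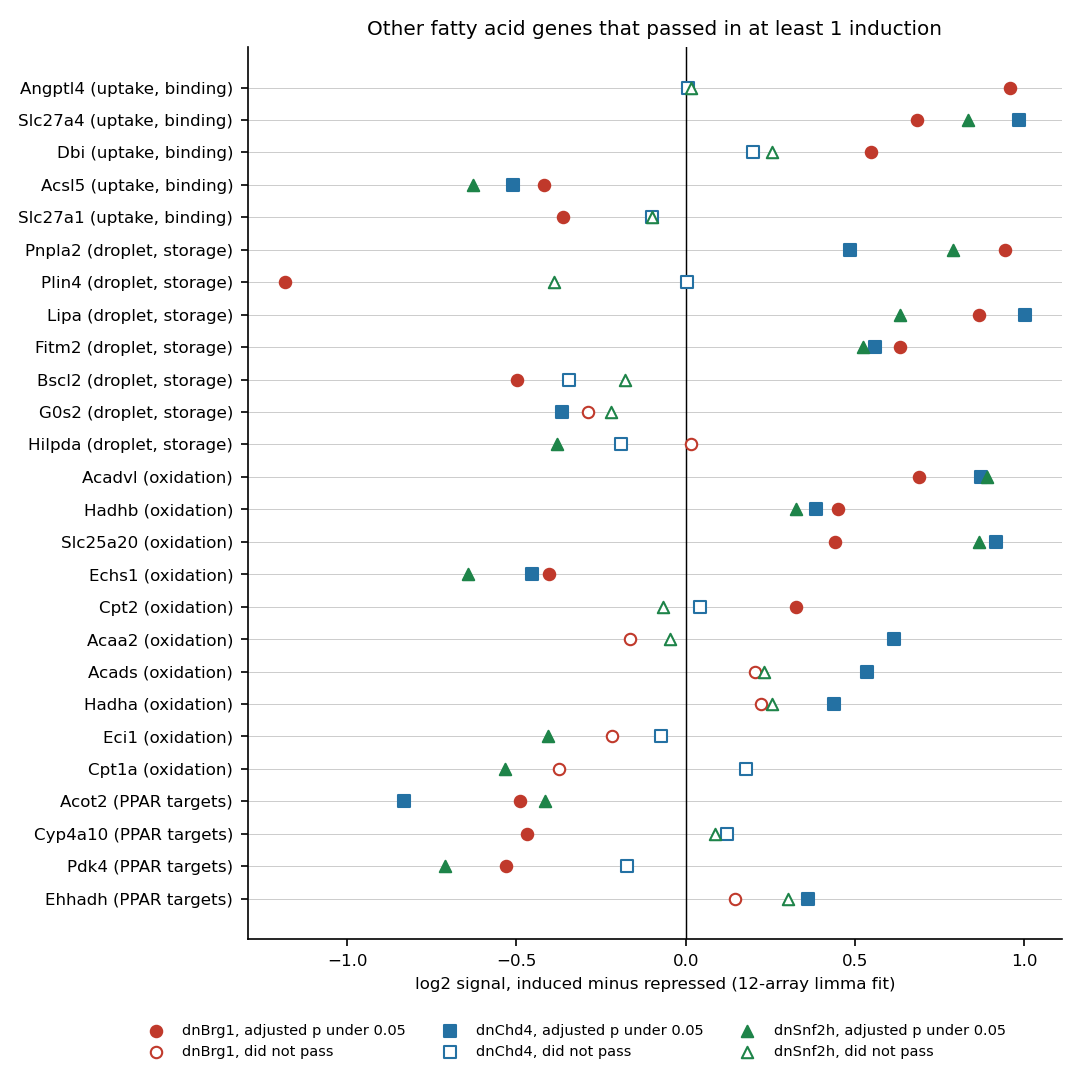
Log2 signal change, induced minus repressed (horizontal axis, 12-array limma fit), of other genes in the uptake, droplet, oxidation and PPAR target lists that passed in at least 1 dominant-negative induction and met the naming rule. Each row is a gene with its list in brackets, and filled symbols passed at an adjusted p under 0.05. Slc27a4, Pnpla2, Lipa, Fitm2, Acadvl and Slc25a20 lie right of 0 in all 3 lines, and Angptl4 is filled in dnBrg1 and open near 0 in dnChd4 and dnSnf2h.

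The genes whose levels followed Cd36 most closely over the 12 dominant-negative arrays were Hs3st1 (Pearson r = 0.991), Slc40a1 (r = 0.983) and Klk11 (r = 0.978). Hs3st1 encodes a heparan sulfate sulfotransferase and Slc40a1 the iron exporter ferroportin. Hs3st1 averaged 7.27 in induced and 5.83 in repressed dnBrg1, and between 4.83 and 4.90 in the other 4 groups. For Fabp5 they were Snora3 (r = 0.990), Oxa1l (r = 0.985) and Nup188 (r = 0.983), and for Cebpb Tnfrsf18 (r = 0.935), Fzd10 (r = 0.932) and Rab32 (r = 0.918). Within the 9 genes Cd36 and Fabp5 had r = -0.873 and Fabp5 and Fabp4 r = 0.762. The 12 points share 6 groups and 3 lines, so these values are descriptions.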

How the data were processed

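The authors deposited a single table of log2 signals, a unit read from the values themselves: they span 2.02 to 14.86, and the medians of the arrays lie between 5.48 and 5.63. Per the submitters' processing notes the authors used Affymetrix Expression Console. The sources used here do not give its version, the normalization or a genome build. Arrays give no read depth, and the number of arrays limits the precision. Of 35557 probe sets, 21789 had 1 gene symbol, 1621 several and 12147 none. RefSeq matched 21698 of the singly named ones by gene number. For 999 genes with several probe sets the one with the highest mean was kept.

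Sample titles gave the groups. The deposited log2 values were fitted without further scaling with limma 3.58.1 and R 4.3.3, using 1 mean per group and moderated two-sided tests. Benjamini-Hochberg adjustment ran over 19938 genes within each of 16 comparisons, with 0.05 as the threshold. Every adjusted p comes from limma. The script was tested on simulated data. The main fits did not pair the dominant-negative arrays by replicate number. Over 15 pairs of groups the correlation of same-numbered deviations ran from -0.39 to 0.31. Between repressed and induced arrays of 1 line it was 0.31 in dnSnf2h, 0.14 in dnChd4 and 0.02 in dnBrg1, so a pairing in dnSnf2h remains possible.

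The genes, lists, tests and settings were chosen with earlier results of these data known. Named were all 9 genes and the targeted genes. Of each of 7 pathway lists up to 5 other genes with the smallest adjusted p per induction were eligible, of the marker lists up to 3 with the highest mean or past the threshold, and for each called gene the 3 most correlated genes. Other settings were 17 or 15 arrays, a line alone, the replicate block, trended and robust eBayes, array weights, no genes under a mean of 4.77 (the dimmest 30%), quantile normalization, median centring, all probe sets, the mean of probe sets and each array left out.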

Additional observations from a re-analysis of the deposited data

Results flagged for a closer look

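Cd36 stood apart because its induction in dnBrg1 differed from those of the other lines by the test of the difference. The dnBrg1 induction exceeded the dnChd4 induction by 1.52, the dnSnf2h induction by 1.29 and the control induction by 1.40 on the log2 scale (limma adjusted p = 3.88e-05, 6.37e-04 and 0.00151). Groups of 2 and 3 arrays are too small to be searched for single outlying arrays.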

How the results depend on the processing

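Cd36 kept its rise in dnBrg1 under every setting that tested it, at 1.35 to 1.47 on the log2 scale with adjusted p from 1.85e-07 to 3.04e-04. Leaving out the dimmest 30% drops it by construction, with Lpl, Fabp4 and Adipoq. The other counts depend on the control arrays. Counts of the 9 genes called are given next. With 17 arrays they were 1 in the dnBrg1 induction, 0 in dnChd4, 0 in dnSnf2h (2 each on 12 arrays) and 1 in repressed dnBrg1 minus dnChd4 (4 on 12). Counts over all genes were then 68, 19 and 1, against 2839, 3590 and 3497 on 12 arrays. With 15 arrays the counts of the 9 were 4 in the control induction, against 0 in limma with 17 (845 of all genes at an unadjusted p under 0.05), 2 in the dnBrg1 minus control induction, and 6, 2 and 3 in repressed dnBrg1, dnChd4 and dnSnf2h minus control. In dnSnf2h alone the count was 1, and 1446 over all genes. Trended and robust eBayes gave 2 in repressed dnBrg1 minus control, as did median centring and the mean of probe sets. Quantile normalization gave 3 there and 4 in the dnChd4 induction, where the count over all genes was 3994. Array weights gave 4 in the dnChd4 induction, 2 in dnBrg1 minus dnChd4 inductions and 0 in repressed dnSnf2h minus control. Over all genes array weights gave 5268 in dnChd4 and 2063 in dnSnf2h, against 3590 and 3497 in the main fit. For comparisons between lines, counts over all genes under these settings are not given here, so no share stands beside those of the 9. Without the dimmest 30% the counts were 1 in the dnBrg1 induction and in repressed dnBrg1 minus dnSnf2h, and 0 in the dnBrg1 induction minus each other line's and in repressed dnBrg1 and dnSnf2h minus control. All probe sets gave 2 in repressed dnBrg1 minus dnChd4. The replicate block moved no count of the 9 genes by over 1.5 times in 16 comparisons, and over all genes gave 2676, 3463 and 3313; the 1 call it ended was Fabp4 in repressed dnBrg1 minus dnChd4 (adjusted p = 0.0536). With each array left out the counts ran from 2 to 2 in the dnBrg1 induction, 2 to 3 in dnChd4, 2 to 4 in dnSnf2h, 1 to 1 in dnBrg1 minus dnChd4, 1 to 2 in dnBrg1 minus dnSnf2h, 2 to 5 and 2 to 4 in repressed dnBrg1 minus dnChd4 and dnSnf2h, and 1 to 3 and 0 to 2 in repressed dnBrg1 and dnSnf2h minus control. Over all genes they ran from 1353 to 3423 in dnBrg1, 1926 to 4180 in dnChd4 and 2342 to 4204 in dnSnf2h. The dnBrg1 count was 1741 without its repressed replicate 2 and 1397 and 1353 without its induced replicates 1 and 2. The dnChd4 count was 1926 without its repressed replicate 2 and 2011 without its induced replicate 1. No value called on the 12 arrays, or on 17 against control, turned its direction. Values called with 15 arrays did cross 0 over the settings: the control induction of Fabp5 (-1.28 to 0.17), Cebpb (-0.90 to 0.23) and Lpl (-0.48 to 0.15), and for Cebpb the dnBrg1 minus control induction (-0.15 to 0.98) and repressed dnBrg1 minus control (-0.61 to 0.23). The causes were not tested. Signals under the dimness bound limit what can be seen for Lpl, Fabp4, Adipoq and, outside induced dnBrg1, Cd36.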

Other observations

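Of 9 basal markers of the mammary gland 0 rose and 1 fell in dnBrg1, 3 rose and 1 fell in dnChd4, and 2 rose and 1 fell in dnSnf2h. Of 11 fibroblast and mesenchymal markers 0 rose and 7 fell, 1 rose and 1 fell, and 0 rose and 4 fell in the same lines. Over all genes 8.01% rose and 6.22% fell in dnBrg1, 11.2% and 6.82% in dnChd4, and 9.2% and 8.34% in dnSnf2h. With dnSnf2h fitted alone 2 fibroblast and mesenchymal markers fell. With dnBrg1 alone 7 of these fell, as did 2 basal markers. Krt14, a basal keratin, fell by 1.29 in dnBrg1, 1.15 in dnChd4 and 1.29 in dnSnf2h (limma adjusted p = 7.22e-05, 1.21e-04 and 6e-05). The smooth muscle actin gene Acta2 rose by 2.56 in dnChd4 and 2.32 in dnSnf2h (limma adjusted p = 6.09e-06 and 1.88e-05). S100a4, a mesenchymal marker, fell by 1.68, 0.76 and 1.02 in dnBrg1, dnChd4 and dnSnf2h (limma adjusted p = 3.49e-07, 1.7e-04 and 1.94e-05). With all 17 arrays these adjusted p-values were between 0.0976 and 0.46. Tagln, another basal marker, rose by 2.53 in dnChd4 (limma adjusted p = 3.71e-07) and still passed with 17 arrays (limma adjusted p = 0.0195). Its rise of 0.60 in dnSnf2h (limma adjusted p = 0.0259) was lost with 17 arrays (limma adjusted p = 0.494). In dnBrg1 it changed by 0.06 (limma adjusted p = 0.899). With 17 arrays 1 fibroblast and mesenchymal marker also fell in dnBrg1. Vim, Col1a2 and Fn1, which are fibroblast and mesenchymal markers, had means of 12.71, 11.90 and 11.59, above the dimness bound, and the epithelial adhesion gene Epcam averaged 4.12, under it.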
